A study of Mus musculus with 23 samples.

Results

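The genes described here form 2 stress programmes of the cell, the response to amino acid shortage that runs through the transcription factor ATF4 and the unfolded protein response of the endoplasmic reticulum (ER). They are 40 genes taken from a list of symbols, all 40 of which were found among the 23512 features of a count table of mouse embryonic hearts. Of these, 22 belong to the ATF4 arm, 12 are ER chaperones and folding enzymes, 4 are ER stress sensors or their transcription factors, and 2 act in ER-associated degradation.

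Hearts were taken at embryonic day 13.5 (E13.5) from mice labelled C57BL/6, and RNA depleted of ribosomal RNA was sequenced in 23 libraries. The 8 wild-type libraries came from hearts labelled ntg, without Cre. The 8 haploinsufficient libraries carried Nkx2.5Cre with GRK6 KO/KO, GRK5 fl/fl and GRK2 fl/wt, and the 7 triple-knockout libraries carried GRK2 fl/fl with the same GRK5, GRK6 and Nkx2.5Cre alleles. G protein-coupled receptor kinases (GRKs) phosphorylate activated receptors. Both mutant groups therefore share Cre, the floxed Grk5 and the absent Grk6, none of which the wild-type hearts carried. By label they differ from each other by 1 floxed Grk2 allele. Nkx2.5Cre acts in the cardiac lineage and in other tissues where Nkx2-5 has been active, and cells outside that lineage keep the floxed alleles intact. The labels do not say whether each library is a separate embryo, so p-values measure the spread between these libraries, which may be technical in part.

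Amino acid shortage activates the kinase GCN2, and misfolded protein in the ER activates the kinase PERK. Both phosphorylate the translation factor eIF2, which lowers protein synthesis and raises translation of the Atf4 message, and ATF4 then switches on genes for amino acid synthesis and uptake. ER stress also activates ATF6, a membrane-bound transcription factor that is released by cleavage, and IRE1, an RNase that splices the Xbp1 message. These 2 branches raise ER chaperones and degradation genes. The levels measured here are of whole messages and show neither translation of Atf4 nor splicing of Xbp1.

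The 2 programmes are usually read through different promoter elements, and the letters of these elements were looked for in RefSeq promoter windows (build GRCm38.p6, 250 bases before to 50 bases after each start). Windows were matched for 37 of the 40 genes. Atf6, Slc7a5 and Hyou1 had none. The ER stress response element was searched as CCAAT and CCACG separated by 9 bases, on both strands. It was present in 7 of the 11 chaperone genes with a window, in 0 of 21 ATF4 arm genes, and in 0.119% of the 32851 windows of all genes. The following stretches show the match with its flanks for some of these chaperones, on the strand of the gene. The 2 half-sites are in capitals (on the opposite strand they read CGTGG and ATTGG).
Hspa5, chr2:34772005-34772063, plus strand: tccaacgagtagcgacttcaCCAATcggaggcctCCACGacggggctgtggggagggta
Calr, chr8:84847055-84847113, minus strand: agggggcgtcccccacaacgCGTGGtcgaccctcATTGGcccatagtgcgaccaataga
Pdia6, chr12:17266471-17266529, plus strand: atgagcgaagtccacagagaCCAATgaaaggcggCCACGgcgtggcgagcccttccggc
Canx, chr11:50325780-50325838, minus strand: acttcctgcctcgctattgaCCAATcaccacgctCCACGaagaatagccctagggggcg

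The core of the element bound by ATF4 with C/EBP factors was searched as TGATGNAA on both strands. It was present in 7 of 21 ATF4 arm genes (Asns, Chac1, Fgf21, Nupr1, Slc7a11, Trib3 and Vldlr), in 0 of 11 chaperone genes, in Herpud1 among the other ER genes, and in 3.97% of all windows. The stretches below show some of these matches, and those of Fgf21, Nupr1 and Trib3 are not printed. The fixed letters of the core are in capitals. A match on the opposite strand is written as it reads on the strand of the gene. Slc7a11 held 2 matches. Its stretch has the first in capitals, and the second, on the opposite strand, is near the end in lower case. Herpud1 is shown because its window held both kinds of element, the ATF4 core and, further on, ATTGG and CCACG separated by 1 base, an arrangement known as ER stress response element II and found in 0.0365% of all windows. A match of letters is a description and not evidence of binding. The element TGACGTGG, linked to XBP1, was in none of the 37 genes' windows and in 0.676% of all windows.
Asns, chr6:7693210-7693252, minus strand: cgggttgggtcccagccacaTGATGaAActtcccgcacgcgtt
Chac1, chr2:119351029-119351076, plus strand: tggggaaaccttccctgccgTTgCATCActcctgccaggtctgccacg
Slc7a11, chr3:50443652-50443699, minus strand: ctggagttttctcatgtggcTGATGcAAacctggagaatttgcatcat
Vldlr, chr19:27216800-27216847, plus strand: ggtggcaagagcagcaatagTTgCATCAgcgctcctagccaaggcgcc
Herpud1, ATF4 core, chr8:94386297-94386344, plus strand: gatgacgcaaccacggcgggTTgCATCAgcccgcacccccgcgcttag
Herpud1, ER stress response element II, chr8:94386357-94386407, plus strand: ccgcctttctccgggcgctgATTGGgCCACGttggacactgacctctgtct

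Libraries held between 3838166 and 14050559 counts in wild type, between 1757257 and 11025358 in the haploinsufficient group and between 6657734 and 13864731 in the triple knockout. Cre stood at 0 to 0.838 CPM (counts scaled to 1000000 per library) in wild-type libraries, at 10.1 to 23.8 in haploinsufficient and at 8.15 to 25.2 in triple-knockout libraries. Grk2, listed as Adrbk1, ranged from 49.3 to 60.2 CPM in wild type and from 21.6 to 57.3 in the haploinsufficient group. Its triple-knockout range was 26.6 to 42.5 CPM, and all these sums include undeleted exons. Nkx2-5 itself was also lower in both mutants. Its log2 difference from wild type was -0.50 ± 0.14 (SE) for haploinsufficient hearts and -0.98 ± 0.15 for triple-knockout hearts. Triple-knockout minus haploinsufficient hearts gave -0.48 ± 0.15. The cause of these Nkx2-5 differences was not tested, nor was their part in the values below. The 10 cardiomyocyte markers that define the labelled tissue were all present and summed to 55860 to 77250, 38820 to 86470 and 48040 to 91740 CPM in the 3 groups. A score of 18 liver, lung, foregut and thymus markers (mean log2 CPM minus the wild-type mean) exceeded 1.5 in haploinsufficient libraries 1, 7 and 8 and in triple-knockout libraries 1, 3 and 7, and in no wild-type library. Library identifiers fall into 2 runs, 1 to 12 and 19 to 30, each holding all 3 groups, and the run was a term in the main fit. In wild type the marker score ran from 0.05 to 1.23 in the first run and from -1.12 to -0.26 in the second. Scores of the 2 runs overlapped in both mutant groups. Settings by run and by score are therefore not independent of each other.

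In wild-type hearts 6 chaperones were the most abundant of the 40 genes, and the stress-induced regulators Trib3 and Chac1 were among the least. Levels between genes are compared per length, in deposited FPKM (fragments scaled to transcript length and library size). Calr, which encodes the calcium-binding chaperone calreticulin, led with 331 ± 43.6 FPKM (SD, n = 8). Hspa5, the chaperone BiP that also restrains the stress sensors, followed with 176 ± 18.2 FPKM, Pdia6 with 168 ± 14.04 and Hsp90b1 with 119 ± 10.5. Atf4 ranked seventh, at 65.4 ± 7.67 FPKM, above all other genes of its arm. Trib3 stood at 3.42 ± 1.11 FPKM, Chac1 at 1.02 ± 0.440 and Dnajb9, an ER cochaperone, at 0.936 ± 0.659. Ranges of neighbours in this order mostly overlapped, as for Hspa5 and Pdia6.

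**Figure D1:**
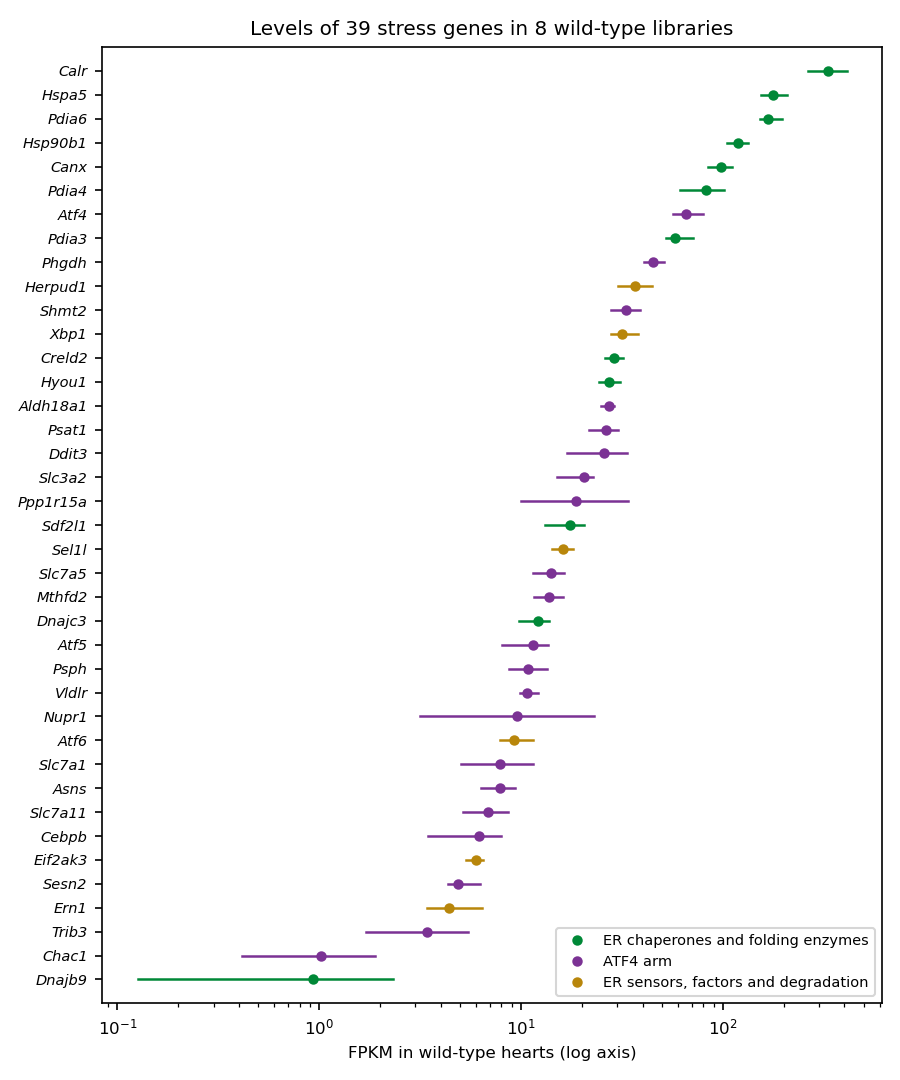
Deposited FPKM of 39 genes in the 8 wild-type libraries on a log axis; points are means, lines run from the lowest to the highest library, and colours mark the gene group. Calr (331 FPKM), Hspa5 (176) and Pdia6 (168) lead, and Chac1 (1.02) and Dnajb9 (0.936) are lowest; Fgf21 was at 0 and is not drawn, and the FPKM of Slc7a11 is 42.2 times its counts per kilobase.

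A pair of genes could not be tested on counts, both of the ATF4 arm. Fgf21, a hormone that stressed liver and muscle release, had 0 counts in all 23 libraries, which allows at most 0.198 to 1.73 CPM per library (3 counts, counting error only). Slc7a11, the cystine-glutamate exchanger, had 1 to 18 counts per library and did not pass the filter on low counts. Its lowest, median and highest libraries were 0.868, 1.41 and 2.18 CPM in wild type, 0.168, 0.614 and 1.16 in the haploinsufficient group and 0.411, 1.16 and 1.69 in the triple knockout, so that the groups overlapped.

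The deposited FPKM of Slc7a11 ran the other way and disagreed in size with its counts. It was 6.82 ± 1.10 in wild type (SD, n = 8), 8.67 ± 1.09 in the haploinsufficient group (SD, n = 8) and 8.89 ± 1.11 in the triple knockout (SD, n = 7). In wild type this was 42.2 times the level computed from counts and exon length, whereas for the 38 other genes with counts the same ratio lay between 0.943 and 1.40. On log2(FPKM + 1), limma gave Slc7a11 a difference of 0.31 ± 0.09 (SE) for haploinsufficient against wild type (adjusted p = 0.0758) and of 0.35 ± 0.09 for triple knockout against wild type (adjusted p = 0.0799). On counts without a filter, edgeR gave -1.25 ± 0.49 (adjusted p = 0.220) and -0.57 ± 0.47 (adjusted p = 0.646). No direction can be given for this gene.

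The haploinsufficient hearts were compared with wild type to see what the shared alleles and loss of a single Grk2 allele leave altered. Of the 38 tested genes, Calr rose and Vldlr fell (edgeR, Benjamini-Hochberg adjusted over all 13941 genes tested, threshold 0.05), and 36 did not pass. That is 5.26% of the genes, where 2.24% of all tested genes were called, and 2 genes are too few to set this list apart. A further 7 genes had an unadjusted p under 0.05 only, making 9 of the 38 in all, beside 2395 of the 13941 genes tested. The 95% intervals of 29 of the 38 log2 fold changes lay wholly within a 1.5-fold change in either direction.

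Between triple-knockout and wild-type hearts, which differ in all 3 kinases, 0 of the 38 genes were called by edgeR, where 1.18% of all tested genes were called. An unadjusted p under 0.05 was reached by 2 of the 38, Herpud1 and Sel1l, and by 1503 of all 13941 genes tested. DESeq2 called 1 of the 38, Herpud1, beside 292 of all 13940 genes it tested. Intervals of 31 of the 38 lay within a 1.5-fold change. By label the triple-knockout and haploinsufficient hearts differ by 1 Grk2 allele. Their comparison gave 0 calls among the 38 by edgeR and DESeq2 alike. Over all genes edgeR called 0.395%, and DESeq2 called 274 of 13940. Here 3 of the 38 had an unadjusted edgeR p under 0.05, beside 2137 of all 13941 genes tested. None of the 38 genes had libraries of the groups compared that did not overlap in CPM. Over all genes tested, 0.459% did not overlap for haploinsufficient against wild type, 0.875% for triple knockout against wild type and 0.0861% between the mutants. The comparisons against wild type share the same 8 wild-type libraries.

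**Figure D2:**
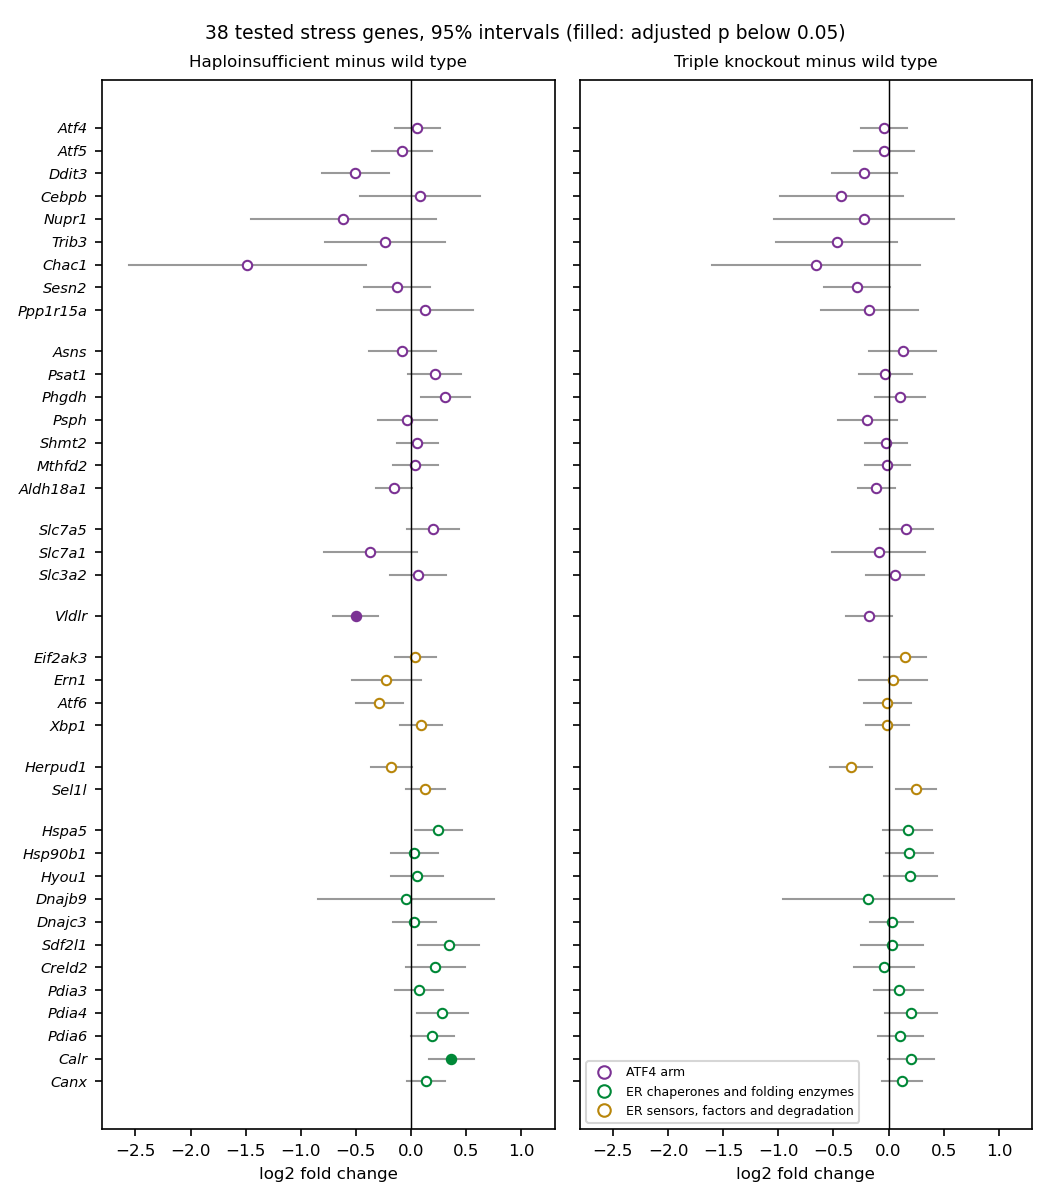
Log2 fold changes of the 38 tested genes with 95% intervals, haploinsufficient minus wild type on the left and triple knockout minus wild type on the right, ordered by role; filled points passed an adjusted p of 0.05. Only Vldlr (-0.50) and Calr (0.36), both in the haploinsufficient comparison, are filled.

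Among the regulators of the ATF4 arm, 9 of 9 were tested and 0 were called in any comparison. Atf4 itself stood at 92.3, 109 and 127 CPM (lowest, median and highest library) in wild type, at 77.6, 114 and 143 in the haploinsufficient group and at 96.5, 103 and 124 in the triple knockout. Its differences from wild type were 0.06 ± 0.10 (SE, edgeR adjusted p = 0.817) and -0.04 ± 0.10 (adjusted p = 0.926), with 95% intervals of -0.15 to 0.26 and -0.25 to 0.16. The libraries of the 3 groups overlapped over most of their range.

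Ddit3, which encodes CHOP, a transcription factor of prolonged stress, was lower in many haploinsufficient libraries without passing the test. It stood at 11.9, 18.8 and 24.1 CPM in wild type, at 7.51, 13.1 and 16.8 in the haploinsufficient group and at 13.4, 15.2 and 20.1 in the triple knockout. The difference was -0.51 ± 0.15 (SE, edgeR adjusted p = 0.0668) for haploinsufficient and -0.22 ± 0.15 (adjusted p = 0.649) for triple knockout against wild type. DESeq2 called the first of these (adjusted p = 0.0350), as did edgeR without wild-type library 3 (adjusted p = 0.0413). Without the 6 libraries high in neighbouring-tissue markers the difference was -0.68 (adjusted p = 0.0684). Of the exonic bases of Ddit3, 7.81% also belong to Mars on the opposite strand, and the libraries keep no strand.

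Chac1, an enzyme that degrades glutathione and a sensitive ATF4 target, rested on few reads. It had 86 counts over the 8 wild-type libraries, 21 over the haploinsufficient and 59 over the triple-knockout libraries. The lowest, median and highest levels were 0.637, 1.58 and 2.68 CPM in wild type, 0, 0.488 and 1.73 in the haploinsufficient group and 0.547, 0.857 and 1.59 in the triple knockout. Haploinsufficient libraries 1, 3 and 6 had no read. Library 2 of that group, the one of lowest depth, was above the wild-type median on only 3 counts. The difference of haploinsufficient from wild type, -1.49 ± 0.52 (SE), had an interval from -2.56 to -0.41 and an edgeR adjusted p of 0.139.

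Trib3, a pseudokinase that feeds back on ATF4, stood at 3.32, 6.79 and 11.2 CPM in wild type, at 3.21, 5.04 and 9.96 in the haploinsufficient group and at 2.66, 4.81 and 7.95 in the triple knockout. Neither difference from wild type passed (-0.23 ± 0.27, edgeR adjusted p = 0.691, and -0.47 ± 0.27, adjusted p = 0.563). The other regulators, Atf5, Cebpb, Nupr1, Sesn2 and Ppp1r15a, differed from wild type by -0.62 (Nupr1) to 0.13 (Ppp1r15a) in the haploinsufficient group and by -0.43 (Cebpb) to -0.04 (Atf5) in the triple knockout. Ppp1r15a encodes GADD34, the phosphatase subunit that reverses eIF2 phosphorylation, and Sesn2 a leucine sensor upstream of mTORC1. In the triple knockout all 9 regulators had a fitted value below 0, with a median of -0.22, and in the haploinsufficient group 6 of 9 did, with a median of -0.13. The medians over all genes tested were 0.0085 and 0.011, and no single regulator passed. These signs did not all hold in other settings. In the triple knockout, Ppp1r15a and Nupr1 were at 0.34 and 0.62 on library identifiers 1 to 12 alone, Cebpb at 0.02 on 19 to 30 alone and Atf5 at 0.0021 with the replicate block. In the haploinsufficient group, Ppp1r15a was at 0.85 on 1 to 12 alone and at -0.48 on 19 to 30 alone, a difference between the runs with an unadjusted p of 0.000751 and an edgeR adjusted p of 0.517. Cebpb, at 0.08 there, was at -0.45 without the 6 libraries high in neighbouring-tissue markers.

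**Figure D3:**
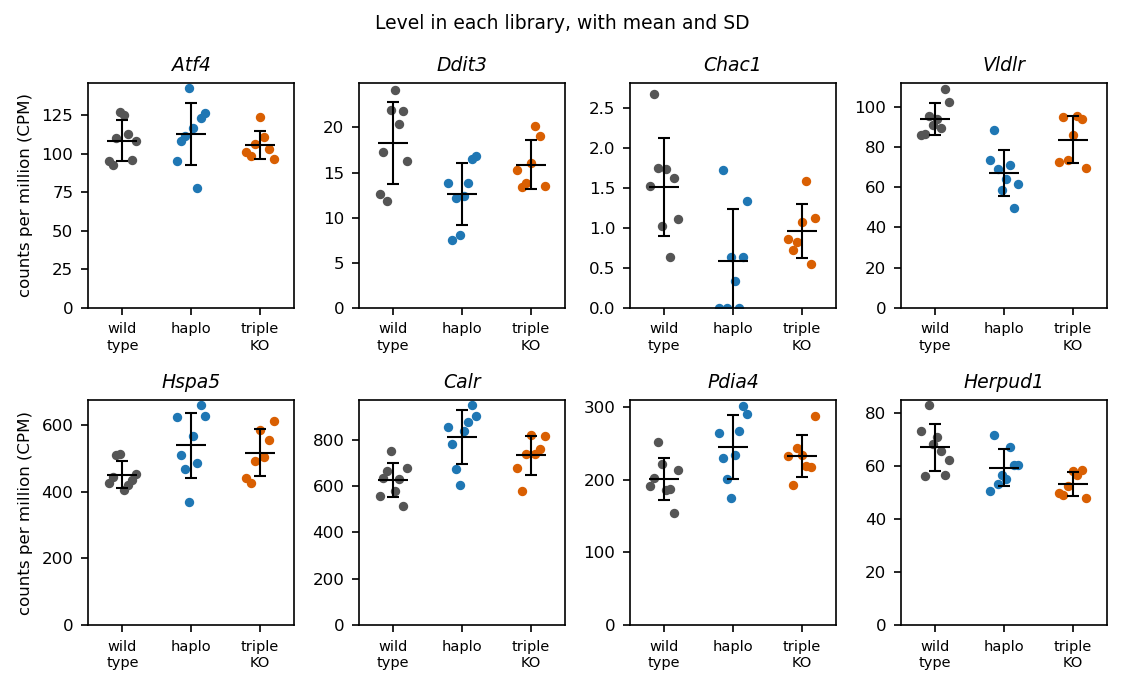
CPM of 8 genes in each library by group; bars give the mean and SD, and every axis starts at 0. Libraries of the groups overlap for all 8 genes, and the lowest haploinsufficient value of Vldlr (49.7 CPM) and the highest of Calr (949.9 CPM) come from the same library, number 7.

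The amino acid and one-carbon enzymes gave 0 calls of 7 in each comparison, and all 7 intervals in each lay within a 1.5-fold change. Asns, asparagine synthetase and a standard readout of ATF4, stood at 12.2, 14.6 and 18.1 CPM in wild type, at 7.97, 13.99 and 19.6 in the haploinsufficient group and at 13.3, 15.7 and 20.8 in the triple knockout. Its differences were -0.08 ± 0.15 (SE, edgeR adjusted p = 0.834) and 0.13 ± 0.15 (adjusted p = 0.835). The serine synthesis enzymes Phgdh and Psat1 had higher means in the haploinsufficient group. Psat1 stood at 47.9, 58.0 and 61.5 CPM in wild type, at 44.7, 62.4 and 89.6 in the haploinsufficient group and at 43.3, 54.1 and 70.8 in the triple knockout. Its 3 highest haploinsufficient libraries, at 77.5 to 89.6 CPM, were numbers 1, 7 and 8, those with a neighbouring-tissue score above 1.5. The triple knockout did not sort this way. Its libraries 1, 3 and 7, also above 1.5, were at 43.3, 51.1 and 70.8 CPM, and library 5, below 1.5, was at 69.2.

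Neither serine enzyme passed the test. Psat1 differed from wild type by 0.21 ± 0.12 (SE, edgeR adjusted p = 0.356) in the haploinsufficient group and by -0.03 ± 0.12 (adjusted p = 0.964) in the triple knockout. Without the 6 libraries high in neighbouring-tissue markers the first of these was -0.01 (adjusted p = 0.976). Phgdh, the first enzyme of the same pathway, went from 79.7 ± 7.09 CPM in wild type (SD, n = 8) to 99.3 ± 22.6 in the haploinsufficient group (SD, n = 8), a difference of 0.31 with an edgeR adjusted p of 0.138, and stood at 86.7 ± 11.5 in the triple knockout (SD, n = 7). Haploinsufficient libraries 7 and 2 were the highest for Phgdh, and its difference was 0.20 (adjusted p = 0.521) without the 6 libraries and 0.11 (adjusted p = 0.712) with the marker score as a term. Psph, the last step of serine synthesis, the mitochondrial folate enzymes Shmt2 and Mthfd2, and Aldh18a1 of proline synthesis differed from wild type by -0.19 to 0.06 over both mutant groups.

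Of the transporters, Slc3a2 and Slc7a5 form the exchanger that brings in leucine, and Slc7a1 takes up arginine and lysine. None of the 3 was called in any comparison. Slc3a2 differed from wild type by 0.06 in both mutant groups and Slc7a5 by 0.20 and 0.16. For Slc3a2 the haploinsufficient difference was -0.27 on identifiers 1 to 12 alone and 0.34 on 19 to 30 alone. That difference between the runs had an unadjusted p of 0.00725 and an edgeR adjusted p of 0.631. Between the mutant groups the runs differed for Slc3a2 by -0.72 (edgeR adjusted p = 0.210). Slc7a1 was the most variable, at 59.9 ± 17.9 CPM in wild type (SD, n = 8), 46.04 ± 17.9 in the haploinsufficient group (SD, n = 8) and 56.4 ± 13.96 in the triple knockout (SD, n = 7).

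Vldlr was the member of the ATF4 arm that fell. It encodes the very low density lipoprotein receptor, which takes up triglyceride-rich particles and is abundant in heart, and stress can raise it through ATF4. The gene stood at 85.8, 92.4 and 109 CPM in wild type, at 49.7, 66.6 and 88.3 in the haploinsufficient group and at 69.4, 86.2 and 95.7 in the triple knockout. Of the haploinsufficient libraries, number 2 alone lay inside the wild-type range. The level was lower in the haploinsufficient group by a log2 difference of -0.50 ± 0.10 (SE, edgeR adjusted p = 0.00573). The triple knockout differed from wild type by -0.18 ± 0.10 (adjusted p = 0.577) and from the haploinsufficient group by 0.33 ± 0.10 (adjusted p = 0.143).

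The fall of Vldlr was found on library identifiers 19 to 30 alone (-0.68, edgeR adjusted p = 0.0206) and not on 1 to 12 alone (-0.32, adjusted p = 0.558), although the difference between the 2 runs did not pass for Vldlr or any other gene of the 38 (114 tests, lowest adjusted p 0.210). Without the 6 libraries high in neighbouring-tissue markers it was -0.43 (adjusted p = 0.0421), and with that marker score as a term -0.33 (adjusted p = 0.110). Of 6 endothelial markers, 2 fell, Cdh5 by 0.60 and Tek by 0.45 on the log2 scale (edgeR adjusted p = 0.00391 and 0.00506), and all 6 had values below 0. Their sum was 789 to 1090 CPM in wild type, 706 to 897 in the haploinsufficient group and 818 to 1003 in the triple knockout, with none at 0. Whether endothelial content has a part in the level of Vldlr was not tested, and in bulk tissue fewer cells of a type and less RNA per cell cannot be told apart.

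The ER sensors and their factors gave 0 calls of 4 in each comparison, and all intervals lay within a 1.5-fold change. Eif2ak3, the kinase PERK, stood at 25.5, 28.03 and 30.2 CPM in wild type, at 20.2, 28.4 and 35.8 in the haploinsufficient group and at 28.9, 31.04 and 35.4 in the triple knockout. Ern1, which encodes IRE1, stood at 13.5, 18.1 and 24.97 CPM, at 9.14, 16.8 and 19.8 and at 17.0, 18.9 and 20.6 in the same order. The lowest value of both genes was in the haploinsufficient group, and the 3 groups overlapped.

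Xbp1, the message that IRE1 splices, stood at 59.2, 67.5 and 86.4 CPM in wild type, at 59.0, 75.5 and 91.4 in the haploinsufficient group and at 63.3, 68.4 and 76.4 in the triple knockout. Its differences from wild type were 0.09 ± 0.09 (SE, edgeR adjusted p = 0.662) and -0.01 ± 0.10 (adjusted p = 0.983). Atf6 stood at 64.2, 72.1 and 86.5 CPM in wild type, at 46.9, 54.6 and 90.1 in the haploinsufficient group and at 63.4, 74.3 and 78.4 in the triple knockout. Most haploinsufficient libraries were lower for Atf6, but 1 exceeded every wild-type library. The difference was -0.29 ± 0.10 (edgeR adjusted p = 0.147), without the 6 libraries high in neighbouring-tissue markers it was -0.16 (adjusted p = 0.575), and without haploinsufficient library 3 it became -0.40 (adjusted p = 0.0101). Atf6 then also differed between triple knockout and haploinsufficient hearts, by 0.38 (adjusted p = 0.0227).

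The 2 degradation genes differed in sign in the triple knockout. Herpud1, which organises the degradation complex and whose window held both elements, was 66.9 ± 8.94 CPM in wild type (SD, n = 8), 59.4 ± 7.10 in the haploinsufficient group (SD, n = 8) and 53.1 ± 4.48 in the triple knockout (SD, n = 7). The highest triple-knockout library, at 58.3 CPM, lay just above the lowest wild-type library, at 56.1. The difference of -0.34 ± 0.09 (SE) had an edgeR adjusted p of 0.0712, and DESeq2 called it at the same size (adjusted p = 0.0181). Sel1l, the adaptor of the HRD1 ubiquitin ligase, was 107 ± 9.74 CPM in wild type and 128 ± 10.04 in the triple knockout (SD, n = 8 and 7), a difference of 0.25 ± 0.09 with an edgeR adjusted p of 0.241.

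Of the 12 chaperones and folding enzymes, 1 rose in the haploinsufficient group, Calr, and 0 were called in the other comparisons. Hspa5 stood at 406, 440 and 514 CPM in wild type, at 371, 539 and 660.0 in the haploinsufficient group and at 427, 505 and 613 in the triple knockout. Its differences were 0.25 ± 0.10 (SE, edgeR adjusted p = 0.214) and 0.17 ± 0.11 (adjusted p = 0.617). Without the 6 libraries high in neighbouring-tissue markers the first of these was 0.10 (adjusted p = 0.760). Both mutant groups had medians near or above the wild-type maximum while their lowest libraries stayed inside its range or, in the haploinsufficient group, under it.

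Hsp90b1, the ER form of HSP90, stood at 298, 331 and 381 CPM in wild type, at 244, 338 and 439 in the haploinsufficient group and at 293, 389 and 447 in the triple knockout. Here the triple knockout had the higher value, 0.19 ± 0.11 (SE, edgeR adjusted p = 0.555) against 0.03 ± 0.10 (adjusted p = 0.917). The disulfide isomerases Pdia4, Pdia6 and Pdia3 differed by 0.28, 0.19 and 0.07 in the haploinsufficient group and by 0.20, 0.11 and 0.09 in the triple knockout. Pdia4 was called in the haploinsufficient group on identifiers 19 to 30 alone (0.57, edgeR adjusted p = 0.0412), was at 0.0016 on 1 to 12 alone, and was at 0.15 without the 6 libraries. Sdf2l1, Creld2, Canx, Hyou1 and the cochaperone Dnajc3 lay between 0.03 and 0.34 in the haploinsufficient group and between -0.04 and 0.19 in the triple knockout. Dnajb9, with 64 to 102 counts per group, had standard errors of 0.38 to 0.39 and intervals that reached beyond a 1.5-fold change in both directions.

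Calr stood at 514, 634 and 751 CPM in wild type, at 607, 848 and 949.9 in the haploinsufficient group and at 579, 739 and 822 in the triple knockout. Of the 8 haploinsufficient libraries, 6 lay above the highest wild-type library and numbers 3 and 4 inside the wild-type range. The rise was 0.36 ± 0.10 (SE, edgeR adjusted p = 0.0474). In the triple knockout the difference from wild type was 0.21 ± 0.10 (adjusted p = 0.483), and between the mutant groups it was -0.16 ± 0.10 (adjusted p = 0.471). The call rested close to the threshold, and 11 of 35 alternative settings kept it. On identifiers 1 to 12 alone the difference was 0.16 (adjusted p = 0.830), on 19 to 30 alone 0.57 (adjusted p = 0.0206), and without the 6 libraries high in neighbouring-tissue markers 0.28 (adjusted p = 0.317).

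In the main fit the medians of the 2 arms lay on opposite sides of that of all genes in both mutant groups, by small amounts. In the haploinsufficient group the 20 tested ATF4 arm genes had a median log2 difference from wild type of -0.06, with 9 above and 11 below 0, and the 12 chaperones a median of 0.16, with 11 above 0. In the triple knockout the medians were -0.10, with 4 of 20 above 0, and 0.11, with 10 of 12 above 0. Over all genes tested the medians were 0.011 and 0.0085, and 52.0% and 51.9% of values were above 0. Without wild-type library 5 the ATF4 arm median of the haploinsufficient group turned to 0.02, beside 0.018 for all genes in that setting. Between triple knockout and haploinsufficient hearts the medians were -0.04 and -0.08, beside 0.0029 for all genes. On log2(FPKM + 1) with limma they were 0.03 and 0.0042, beside 0.074 for all genes, so both stayed under the median of all genes. Lists outside these 2 arms did not all follow this pattern. In haploinsufficient and triple-knockout hearts the medians were 0.0020 and 0.0040 for 25 further ATF4 targets. They were 0.011 and -0.03 for 30 further ER folding and degradation genes. For the 6 ER sensors, factors and degradation genes they were -0.07 and 0.01, and for 23 genes of ER translocation and glycosylation 0.09 and 0.03. The difference between the arms was not tested, and the members of an arm share libraries and are not independent.

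Per library, the mean of the 12 chaperones (log2 CPM minus the wild-type mean) ran from -0.26 to 0.16 in wild type, from -0.20 to 0.50 in the haploinsufficient group and from -0.14 to 0.41 in the triple knockout. The mean of the 20 ATF4 arm genes ran from -0.17 to 0.21, from -0.45 to 0.09 and from -0.23 to 0.04. Groups overlapped on both scales. Library 7 was the highest for chaperones in both mutant groups.

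The chaperone medians of both mutant groups were lower in the settings that removed or modelled the neighbouring-tissue marker score. They also differed between the runs of identifiers. By library, the relation to the score was not the same in every group. Haploinsufficient libraries with a score above 1.5 had chaperone means from 0.27 to 0.50 and the other 5 from -0.20 to 0.26. In the triple knockout the ranges overlapped, at -0.05 to 0.41 for the 3 libraries above 1.5 and -0.14 to 0.29 for the other 4. In wild type the library with the highest score, 1.23, had a chaperone mean of 0.04. The wild-type library with the lowest score, -1.12, had a mean of 0.06. The chaperone median of the haploinsufficient group was 0.06 without the 6 libraries, 0.02 with the score as a term, 0.0019 on identifiers 1 to 12 alone and 0.33 on 19 to 30 alone. For the triple knockout the same settings gave 0.04, 0.03, 0.02 and 0.21. Over all genes the medians were 0.00062, 5.5e-05, 0.0071 and 0.0041 in the haploinsufficient group. In the triple knockout they were 0.0019, 0.0028, 0.013 and 0.0018. On identifiers 1 to 12 alone the chaperone median of the haploinsufficient group was thus under that of all genes. The ATF4 arm median stayed between -0.11 and -0.05 in these settings for both mutant groups.

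The 10 lung, foregut and thymus markers, none at 0 in every library, summed to 2.24 to 40.3 CPM in wild type, 1.14 to 244 in the haploinsufficient group and 4.37 to 143 in the triple knockout, and 2 of the 6 tested, Cldn6 and Foxf1, rose in the haploinsufficient group. The 8 liver markers summed to 8.56 to 33.9, 9.07 to 35.2 and 4.35 to 23.2 CPM, and 0 of 6 tested were called. Of the 8 cartilage and skeletal muscle markers, none at 0 in every library, 4 were tested. Acan fell by 1.58 on the log2 scale in the haploinsufficient group (edgeR adjusted p = 0.000225), and Acan, Comp and Col2a1 fell by 1.60, 1.73 and 1.11 in the triple knockout (adjusted p = 0.000139, 0.0105 and 0.0309). The list summed to 109 to 235 CPM in wild type, 37.6 to 174 in the haploinsufficient group and 47.8 to 143 in the triple knockout. Of 7 macrophage markers 1 rose, Mrc1, by 0.77 in the triple knockout (adjusted p = 0.0124), and the list summed to 86.8 to 143, 87.0 to 138 and 123 to 168 CPM. The part of either list in the members' values was not tested. The part of neighbouring tissue in the chaperone values was not tested. All 6 libraries left out were mutant, 3 of 8 haploinsufficient and 3 of 7 triple-knockout, so that setting also holds fewer mutant libraries. The score itself differed by group, with medians of -0.11 in wild type, 1.03 in haploinsufficient and 1.23 in triple-knockout libraries. Its part and that of the genotype cannot be fully told apart.

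**Figure D4:**
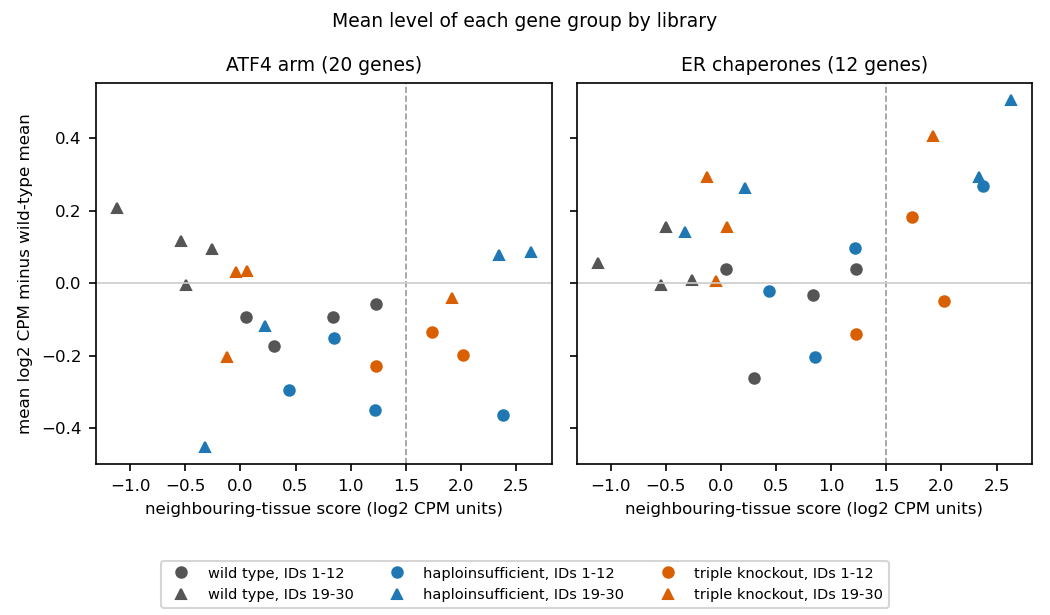
Mean log2 CPM of the 20 ATF4 arm genes (left) and the 12 chaperones (right) in each library, minus the wild-type mean, against the score of 18 liver, lung, foregut and thymus markers; colours mark the group, symbols the run of identifiers, and the dashed line a score of 1.5. The highest chaperone value, 0.50, belongs to the library with the highest score, haploinsufficient library 7, and ATF4 arm values range from -0.45 to 0.21. Triple-knockout library 1, with a score of 2.02, has a chaperone value of -0.05, and triple-knockout library 6, with a score of -0.12, one of 0.29.

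The median coefficient of variation of the 20 ATF4 arm genes was 14.1% in wild type, 26.8% among haploinsufficient libraries and 16.4% in the triple knockout. For the 12 chaperones it was 10.5%, 18.9% and 14.1%. Chac1 reached 111.3% in the haploinsufficient group. The lowest depth, 1757257 counts, was also in that group.

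Further genes of these pathways, taken from lists of textbook members, gave 0 calls in every comparison. They were 20 cytosolic aminoacyl-tRNA synthetases, 25 further ATF4 targets, 13 eIF2 kinases, subunits and exchange factors, 30 further ER folding and degradation genes, 23 genes of ER translocation and glycosylation, 15 cytosolic heat shock genes and 10 mitochondrial chaperones and proteases. Of the synthetases, which charge tRNAs and of which several are ATF4 targets, 18 of 20 had values above 0 in haploinsufficient hearts and 16 in triple-knockout hearts, with medians of 0.13 and 0.09. Hars had the smallest p, at 0.27 ± 0.08 (SE, edgeR adjusted p = 0.0651) in the haploinsufficient group. All 20 intervals lay within a 1.5-fold change in both groups.

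Atf3, a stress-induced factor downstream of ATF4, was 21.1 ± 2.45 CPM in wild type (SD, n = 8), 17.2 ± 5.17 in the haploinsufficient group (SD, n = 8) and 16.5 ± 3.31 in the triple knockout (SD, n = 7), with edgeR adjusted p-values of 0.333 and 0.382. Eif2s2, the beta subunit of eIF2, went from 53.2 ± 14.9 to 75.3 ± 11.2 CPM in the haploinsufficient group, a difference of 0.51 ± 0.14 with an edgeR adjusted p of 0.0545. The remaining ER genes with the smallest p were Manf, a secreted ER stress protein, at 0.29 (adjusted p = 0.121) in the haploinsufficient group and Stt3a, a catalytic subunit of oligosaccharyltransferase, at 0.36 (adjusted p = 0.176) in the triple knockout. Hspe1, the mitochondrial HSP10, was at 0.37 (adjusted p = 0.116) in the haploinsufficient group and, between the mutant groups, at -0.50 (adjusted p = 0.0780).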

How the data were processed

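RNA of 23 hearts' libraries (8, 8 and 7 per group) was read as deposited. The submitters' processing notes name the build mm10 and the tools TopHat2 2.0.10, Bowtie2, HTSeq and Cufflinks 2.1. The deposited counts of the authors are whole reads per gene, and the deposited FPKM of the authors are scaled to transcript length and library size. Per the labels' protocols the libraries keep no strand. All value columns were mapped to a sample (0 were not). Gene positions and exon overlaps come from the deposited annotation.

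Counts were tested with edgeR 4.0.16 in R 4.3.3 (TMM, quasi-likelihood, all 23 libraries, group coefficients plus the run of library identifiers). Genes passed the expression filter at a minimum count of 10 and total of 15. The 4 targeted genes and Cre were left out of the calls. Two-sided p-values were adjusted by Benjamini-Hochberg over the 13941 genes tested, with a threshold of 0.05. "Rose" and "fell" are used for called genes only. CPM use TMM library sizes. The test was also run on simulated counts, which held no effect of the run or of neighbouring tissue and so cannot speak to either. Intervals are 95% and not adjusted for the number of genes. The depth of 1757257 to 14050559 counts per library limits genes near 1 CPM, such as Chac1.

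Members and lists were chosen with earlier results of these data known. Lists are described by counts and medians without a test. Libraries' values are given for 14 genes set by role and for called genes, and up to 4 genes of smallest p per further list. Alternatives were RLE factors, no filter, DESeq2 1.42.0, limma 3.58.1 on log2(FPKM + 1) or log2(FPKM + 0.1) where at least 7 libraries reached an FPKM of 1, no identifier term, a replicate block, only the groups compared, each run alone, each library left out, and the neighbouring-tissue score as a term or a limit of 1.5. Promoter windows are from RefSeq. Protein sequences were not used here.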

Additional observations from a re-analysis of the deposited data

How the results depend on the processing

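In the haploinsufficient comparison, Vldlr was called in 33 of 35 alternatives (-0.68 to -0.32), and Calr in 11 of 35 (0.16 to 0.57, adjusted p 0.00541 to 0.830). The number of genes called there, 2, became 1 without a filter, with only the groups compared, without the 6 libraries high in neighbouring-tissue markers and with limma on either FPKM scale, and 0 on identifiers 1 to 12 alone and with the marker score as a term. It became 3 with DESeq2 (Ddit3, Vldlr and Calr), beside 562 calls among all 13940 genes tested. On identifiers 19 to 30 alone it was also 3 (Vldlr, Calr and Pdia4), beside 179 calls among all 13852 genes tested. Leaving out single libraries gave 1 to 4 calls, and the 3 without wild-type library 3 were Ddit3, Vldlr and Calr. Calr was lost without any one of wild-type libraries 1, 2, 5, 6, 7 and 8, haploinsufficient libraries 1, 2, 5, 6, 7 and 8, or triple-knockout libraries 1, 3, 5 and 6, and the 4 calls without haploinsufficient library 3 were Phgdh, Vldlr, Atf6 and Calr. For triple knockout against wild type, 0 calls became 1, Herpud1, with DESeq2 and without wild-type library 7 (range 0 to 1). For triple knockout against haploinsufficient hearts the range was 0 to 1, with Atf6 called without haploinsufficient library 3. The chaperone median of the haploinsufficient group, 0.16, was 0.0019 on identifiers 1 to 12 alone, 0.33 on 19 to 30 alone and 0.023 with the score as a term. The causes were not tested. Each run alone holds fewer libraries, and the setting without the 6 libraries holds fewer mutant libraries. Over single libraries left out, the ATF4 arm median ran from -0.11 to 0.02 (haploinsufficient against wild type, above 0 without wild-type library 5) and from -0.13 to -0.05 (triple knockout against wild type), and the chaperone median from 0.14 to 0.22 and from 0.09 to 0.15. Vldlr, Calr, Ddit3, Phgdh, Atf6 and Pdia4 in the haploinsufficient comparison, and Herpud1 in the triple knockout against wild type, kept their sign in all 35 alternatives.

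Replicate numbers did not pair the libraries: correlations of same-numbered deviations ran from -0.20 to 0.13 and from -0.16 to 0.13 against wild type and from -0.05 to 0.47 between the mutants. With the replicate block, calls among all genes went from 165, 312 and 55 to 146, 219 and 16 (triple knockout and haploinsufficient against wild type, and triple knockout against haploinsufficient), and calls among the 38 genes in the haploinsufficient comparison from 2 to 1. Among all genes in the same order, only the groups compared gave 296, 246 and 1 calls, DESeq2 292, 562 and 274, identifiers 1 to 12 alone 50, 20 and 176, 19 to 30 alone 51, 179 and 1, and the marker score as a term 174, 202 and 159, and leaving out the 6 libraries 82, 109 and 0. Between the mutants, no filter gave 88 and limma 0 on either FPKM scale. Leaving out single libraries gave 116 to 184, 152 to 614 and 10 to 420 calls, the last 2 at their highest without haploinsufficient library 3.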
